A study of Homo sapiens with 12 samples.

Results

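The inhibitor of DNA binding genes ID1, ID2, ID3 and ID4 were followed by gene symbol through 12 RNA-seq libraries of MDA-MB-231 cells, a human triple negative breast cancer line that expresses the glucocorticoid receptor (GR). All 4 members had a value in every library, and all 4 were among the 18579 genes tested of 19907 symbols listed. The 4 groups were wt-GR cells with vehicle (Veh), wt-GR cells with TGFβ1, S134A-GR cells with Veh and S134A-GR cells with TGFβ1, with 3 libraries in each. TGFβ1 was given at 10 ng/mL for 6 h, after 18 h of starvation that every group shared, in medium with 1% charcoal-stripped serum. In S134A-GR cells, CRISPR knock-in changed Ser134 of GR to alanine on both alleles. The S134A-GR line is clone #1 and the wt-GR line is a clone recovered without the edit, so that each line is 1 clone, and the receptor's mutation and other differences between the clones cannot be told apart. The labels do not say whether the replicates were separate cultures, and the p-values measure the spread between these samples only.

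ID proteins have a helix-loop-helix domain but no basic region that binds DNA. They pair with E proteins, encoded by TCF3, TCF4 and TCF12, and keep these from binding E-boxes with tissue-restricted bHLH partners, which favours proliferation over differentiation. ID genes are classical targets of bone morphogenetic proteins (BMP) acting through SMAD1 and SMAD5. TGFβ1, which signals mainly through SMAD2 and SMAD3, is known to raise or to repress them depending on the cell and the time of exposure.

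ID1 lies at chr20:31605283-31606515 on the plus strand and ID3 at chr1:23557926-23559501 on the minus strand (hg38, GENCODE release 44). ID2 lies at chr2:8678845-8684461 and ID4 at chr6:19837370-19842197, both on the plus strand. The 250 bases before the RefSeq start of each member are shown, because the 4 differed in how they moved between groups. Capitals mark the motifs searched on both strands, which were CAGAC (a core of SMAD binding elements), GGCGCC (a core of BMP-responsive elements), TGACG (part of the CREB and ATF site), the E-box CACGTG (bound by MYC), the E-box CAGCTG (bound by E proteins with some bHLH partners), the E-box CAGGTG (bound by E proteins and by repressors such as SNAI1), and AGAACA (part of the GR element). Each is written 5′ to 3′ on the strand of its gene, from build GRCh38.p14.
ID1, chr20:31605039-31605288, plus strand: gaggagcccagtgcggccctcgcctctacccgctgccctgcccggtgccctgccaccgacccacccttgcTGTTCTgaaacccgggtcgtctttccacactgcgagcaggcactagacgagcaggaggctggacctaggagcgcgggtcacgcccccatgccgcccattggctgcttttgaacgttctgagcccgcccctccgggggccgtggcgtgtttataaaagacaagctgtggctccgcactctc
ID2, chr2:8681806-8682055, plus strand: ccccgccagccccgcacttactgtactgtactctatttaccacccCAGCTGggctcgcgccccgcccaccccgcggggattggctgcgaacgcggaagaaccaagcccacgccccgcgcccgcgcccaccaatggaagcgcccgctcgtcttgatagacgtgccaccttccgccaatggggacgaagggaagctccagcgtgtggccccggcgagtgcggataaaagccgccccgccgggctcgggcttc
ID3, chr1:23559502-23559751, minus strand: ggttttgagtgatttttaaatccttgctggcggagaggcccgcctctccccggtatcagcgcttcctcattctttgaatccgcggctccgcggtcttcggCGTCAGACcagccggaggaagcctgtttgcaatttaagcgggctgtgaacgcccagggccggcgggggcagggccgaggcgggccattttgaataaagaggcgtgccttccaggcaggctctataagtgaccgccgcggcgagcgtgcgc
ID4, chr6:19837120-19837369, plus strand: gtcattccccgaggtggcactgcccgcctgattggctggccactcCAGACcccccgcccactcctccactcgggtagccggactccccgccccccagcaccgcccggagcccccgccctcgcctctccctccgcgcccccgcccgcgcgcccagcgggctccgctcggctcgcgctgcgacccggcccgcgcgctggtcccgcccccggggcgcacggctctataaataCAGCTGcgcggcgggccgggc
The ID3 window held CAGAC, starting 147 bases before the gene, and it overlapped TGACG on the opposite strand by 2 bases. The ID1 window held AGAACA alone, on the opposite strand and 180 bases before the start. The ID2 window held CAGCTG, and the ID4 window held CAGAC and CAGCTG. Of 34943 promoter windows of this length, 38% held CAGAC, 21.2% TGACG, 14% CAGCTG and 12.4% AGAACA. None of the 4 held GGCGCC (16.4% of all windows), the E-box CACGTG (6.32%) or the E-box CAGGTG (17.5%). Bases outside these windows were not searched, so motifs there would not be seen. GC content was 66% for ID1, 69.2% for ID2, 62% for ID3 and 78.8% for ID4, against a median of 58% over all windows and 63.2% over those of tested genes. Among windows of tested genes, AGAACA was in 8.84%, GGCGCC in 22.5%, TGACG in 25.5%, CAGAC in 37.2% and CAGCTG in 13.6%.

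Recovered totals ranged from 56362036 to 129832227 reads, and 3 reads, taken as the floor of detection, equalled 2.15 to 4.89 normalized counts (reads divided by a size factor for each library). The totals exceed the average number of reads that the labels state, and whether a pair was counted as 2 reads is not given in the sources used here, so that 3 reads may stand for fewer sequenced fragments. The smallest library was wt-GR Veh replicate 1. Genes of the line were present, with VIM, CD44, NR3C1 (which encodes GR), EGFR, AXL and ANXA1 between 8692 and 520900 normalized counts in every group mean. Of 11 tested markers of luminal, leukocyte, endothelial and fibroblast cells, ESR1, PTPRC and DCN stayed at group means of 0.628 to 7.18, COL3A1 reached 11.1, and CD68, PECAM1, PDGFRB and GATA3 were at 712 normalized counts or more. FOXA1 lay between 197.5 and 289.4, ESRP1 between 20.1 and 39.6, and CDH5 was lower in S134A-GR cells (19.01 against 186.6 under Veh), and the part of such genes in the ID values was not tested. The counts per gene do not show the S134A codon, so they do not check that label. All 7 genes used to check the treatment rose with TGFβ1 in both lines, with a median log2 fold change of 1.2 for wt-GR and 1.51 for S134A-GR.

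ID1 was by far the most abundant member. Normalized counts per kb of transcript, the scale on which genes can be compared, were 3563 ± 371 (SD, n = 3) for ID1 in wt-GR cells with Veh, 529.9 ± 11.6 for ID3, 74.9 ± 7.41 for ID2 and 4.42 ± 2.16 for ID4. The length used was that of the Ensembl canonical transcript, 983 bases for ID1, 1299 for ID2, 950 for ID3 and 3873 for ID4. All exons together cover 1233, 2213, 1496 and 3873 bases, and ratios and shares between members depend on the length chosen. ID1 held 85.3% of the summed level per kb of the 4 members in that group, and 90.8%, 88.3% and 93.1% in wt-GR cells with TGFβ1, S134A-GR cells with Veh and S134A-GR cells with TGFβ1. The order ID1, ID3, ID2, ID4 was the same in all 4 groups, and in each group the libraries of neighbours in that order did not overlap. ID4 was at the limit of detection, with 4 of its 12 values under the floor.

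**Figure D1:**
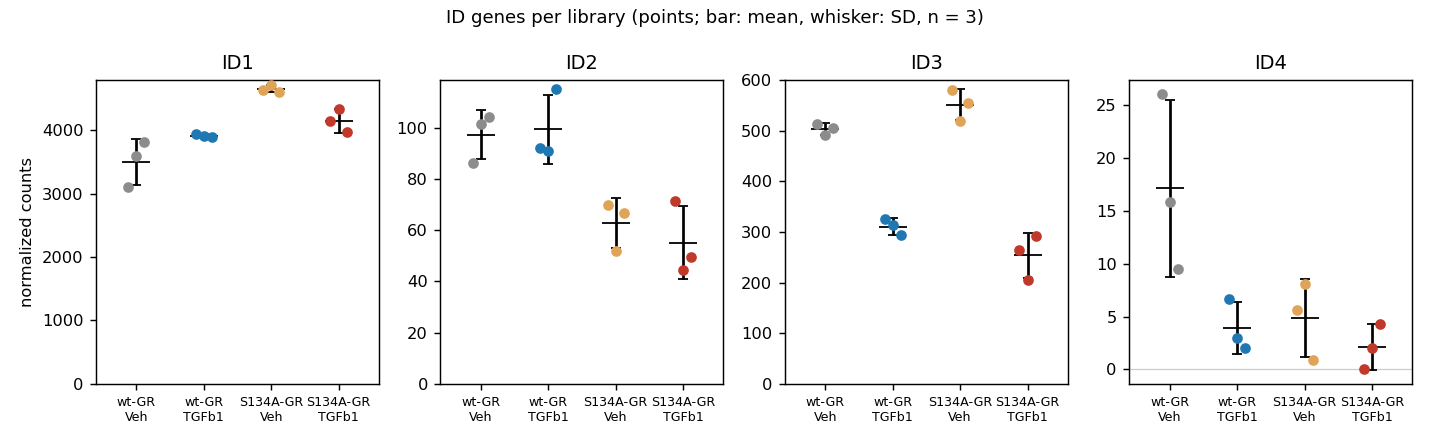
Normalized counts (y axis, from 0 for ID1 to ID3 and with a line at 0 for ID4, a separate scale for each gene) of ID1 to ID4 in the 4 groups (x axis). Each point is a library, and the bar and whisker are the mean and SD of 3. ID3 was lower with TGFβ1 in both lines, ID2 was lower in S134A-GR cells, and ID1 was highest in S134A-GR cells with Veh.

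ID3 fell with TGFβ1 in both lines, and no other member changed past the threshold. In wt-GR cells ID3 had 513.3, 491.4 and 505.4 normalized counts with Veh and 325.5, 313.4 and 293.3 with TGFβ1. In S134A-GR cells it had 579.7, 519.0 and 555.9 with Veh and 263.4, 205.5 and 291.9 with TGFβ1. The treated and untreated libraries did not overlap in either line, and the lowest value of all was that of S134A-GR TGFβ1 replicate 2. In wt-GR cells ID3 fell by 38.2%, a log2 fold change of −0.70 (95% CI −0.941 to −0.45, FDR 0.00052). In S134A-GR cells it fell by 54.4%, a log2 fold change of −1.13 (95% CI −1.38 to −0.886, FDR 6.8e-06). ID3 was thus the 1 member of 4 called lower in each line, where 9.82% and 8.69% of all tested genes were called lower and 11.2% and 10.0% higher. By limma with all 4 groups, no member passed both an FDR under 0.05 and the study's log2 cutoff of 1.5 in a treatment comparison. Of all genes, 1.24% passed both in the wt-GR line and 0.834% in the S134A-GR line. The difference between the responses, S134A-GR minus wt-GR, was −0.44 (95% CI −0.783 to −0.0893) and did not pass adjustment over all genes (FDR 0.411).

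ID1 differed with TGFβ1 by small amounts, of opposite sign in the 2 lines, that did not pass the threshold. In wt-GR cells it had 3100.7, 3592.3 and 3813.8 normalized counts with Veh and 3934.9, 3899.5 and 3898.6 with TGFβ1. In S134A-GR cells it had 4640.2, 4713.7 and 4606.7 with Veh and 4136.2, 4337.4 and 3965.1 with TGFβ1. Every treated library was above every untreated one in wt-GR cells and below every untreated one in S134A-GR cells. The share of all genes separated in this way was not computed. The log2 fold changes of ID1 were 0.16 (95% CI 0.0336 to 0.296, FDR 0.0731) and −0.17 (95% CI −0.298 to −0.0364, FDR 0.0735). Their difference was −0.33 (95% CI −0.517 to −0.147, FDR 0.18), where 0.414% of all tested genes were called in either direction. None of the 4 members was called by limma or edgeR in this comparison. An unadjusted limma p under 0.05 was found for 2 of them, ID1 and ID3, and for 1728 of all 18579 tested genes. Leaving out a library moved these values both ways. Without wt-GR Veh replicate 1, the smallest library and the lowest value, the rise in wt-GR cells was 0.079 (FDR 0.282) and the difference −0.25 (FDR 0.177), while the value in S134A-GR cells, still −0.17, had an FDR of 0.00989. Without wt-GR Veh replicate 3, the rise in wt-GR cells was 0.23 (FDR 0.00959) and the difference −0.40 (FDR 0.0321), and the FDR in S134A-GR cells was 0.0313. With DESeq2 the value in S134A-GR cells was −0.16 (FDR 0.039) and the difference −0.32 (FDR 0.0284), and with only the groups compared in the fit the value in S134A-GR cells had an FDR of 0.0352.

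The balance between ID1 and ID3 shifted with TGFβ1 in both lines. The ratio of ID1 to ID3 per kb was 6.73 ± 0.782 (SD, n = 3) in wt-GR cells with Veh and 12.2 ± 0.598 with TGFβ1. It was 8.17 ± 0.54 in S134A-GR cells with Veh and 16.2 ± 3.75 with TGFβ1, and the treated libraries, from 13.1 to 20.4, lay above the untreated ones, from 7.74 to 8.78. ID3 gave 12.8% of the family's summed level per kb in wt-GR cells with Veh and 7.46% with TGFβ1, and 10.8% and 5.92% in S134A-GR cells.

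ID2 did not move with TGFβ1 beyond its spread. It had 86.4, 101.5 and 104.2 normalized counts in wt-GR cells with Veh and 92.2, 90.8 and 115.1 with TGFβ1, a log2 fold change of 0.03 (95% CI −0.424 to 0.475, FDR 0.953). In S134A-GR cells it had 69.7, 51.7 and 66.8 with Veh and 71.3, 44.5 and 49.4 with TGFβ1, a change of −0.20 (95% CI −0.653 to 0.247, FDR 0.582). Treated and untreated libraries overlapped in both lines. ID4, which had 26.1, 15.9 and 9.5 normalized counts in wt-GR cells with Veh, had 6.7, 2.9 and 2.0 with TGFβ1. These libraries did not overlap, and the fitted change of −1.90 (95% CI −3.43 to −0.37) missed the threshold (FDR 0.0766). It passed with a pseudocount of 16 (−0.71, FDR 0.0137), with DESeq2 (−2.15, FDR 0.0493), with only the groups compared (FDR 0.0467) and without S134A-GR TGFβ1 replicate 1 (FDR 0.0452). In S134A-GR cells ID4 had 5.7, 8.1 and 0.9 with Veh and 0, 2.0 and 4.3 with TGFβ1, values at or near the floor in both groups, for which no fold is given.

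**Figure D2:**
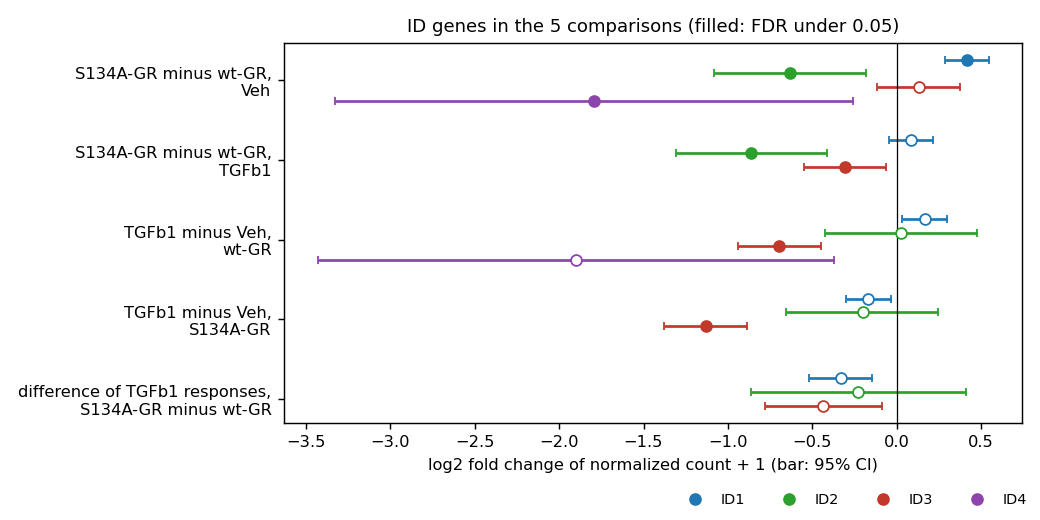
Log2 fold change of the normalized count plus 1 (x axis) with its 95% confidence interval for ID1 to ID4 in the 5 comparisons (y axis), filled where the FDR was under 0.05. ID3 was lower with TGFβ1 in both lines, ID2 was lower in S134A-GR cells under both treatments, and the intervals of ID4 were the widest. ID4 is left out where both groups held a library under 3 reads, and of the difference of responses.

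**Figure D3:**
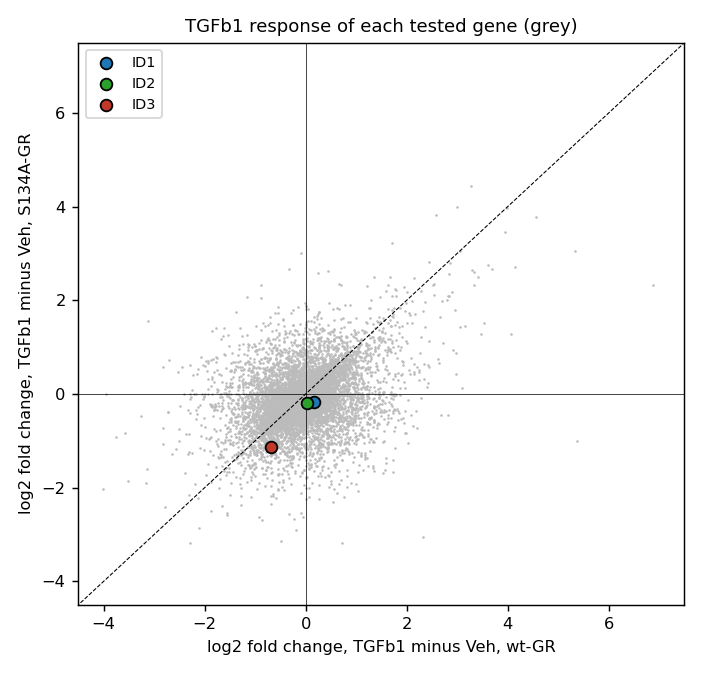
Log2 fold change with TGFβ1 in wt-GR cells (x axis) and in S134A-GR cells (y axis) for each of the 18579 tested genes (grey), with ID1, ID2 and ID3 in color and a dashed line where both responses are equal. ID3 lay at −0.70 and −1.13, below the line, while ID1 and ID2 lay near the center of the cloud.

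Between the lines, the members differed in opposite directions. Under Veh, ID1 was higher in S134A-GR cells by 0.42 on the log2 scale, 1.33-fold (95% CI 0.284 to 0.546, FDR 5.24e-05), with no overlap between lines. ID2 was 1.55-fold lower, at −0.63 (95% CI −1.08 to −0.183, FDR 0.0207), also with no overlap. ID3 differed by 0.13 (95% CI −0.115 to 0.376, FDR 0.368). ID4 was lower, at −1.79 (95% CI −3.33 to −0.261, FDR 0.0487), and was the only member past the study's cutoff of 1.5. Of all genes, 5.47% passed that cutoff with an FDR under 0.05. With a pseudocount of 16 the value of ID4 was −0.65 (FDR 0.00922), under that cutoff. Thus 1 member was called higher and 2 lower, where 25.0% of all tested genes were called higher and 26.5% lower.

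The calls of ID2 and ID4 under Veh did not hold under every alternative. ID2 had an FDR of 0.0592 (log2 −0.60) without wt-GR Veh replicate 2, 0.0618 (−0.58) without wt-GR Veh replicate 3 and 0.0876 (−0.50) without S134A-GR Veh replicate 2. The call of ID4 was lost with edgeR (FDR 0.0594) and DESeq2 (FDR 0.0605) and without 8 of the 12 libraries in turn (all but wt-GR Veh replicate 3, S134A-GR Veh replicate 2 and S134A-GR TGFβ1 replicates 1 and 3), with an FDR as high as 0.22 and a change of −1.11 without S134A-GR Veh replicate 3. With wt-GR Veh replicate 1 left out it was −1.45 (FDR 0.152). ID1 kept its call under all 24 alternatives, from 0.33 to 0.48.

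Under TGFβ1 the lines differed in ID2 and ID3. ID2 was 1.82-fold lower in S134A-GR cells, at −0.86 (95% CI −1.31 to −0.411, FDR 0.00346), and kept its call under all 24 alternatives. ID3 was 1.24-fold lower, at −0.31 (95% CI −0.551 to −0.0606, FDR 0.039), with all 3 S134A-GR libraries below all 3 wt-GR libraries. ID1 no longer differed past the threshold, at 0.08 (95% CI −0.0477 to 0.214, FDR 0.287), although the libraries did not overlap. ID4 had 1 of 3 libraries under 3 reads in wt-GR cells and 2 of 3 in S134A-GR cells, and no fold is given. Of the members 2 were called lower and 0 higher by limma. Of all genes, 25.7% were called lower and 23.1% higher, and 5.04% were called and past the cutoff of 1.5. No member was called higher by edgeR or DESeq2, and none had an unadjusted p under 0.05 in that direction. The call of ID3 was lost without S134A-GR TGFβ1 replicate 2 (−0.16, FDR 0.195), wt-GR TGFβ1 replicate 1 (−0.27, FDR 0.112), wt-GR TGFβ1 replicate 2 (−0.30, FDR 0.0883), S134A-GR Veh replicate 3 (FDR 0.0514) or wt-GR Veh replicate 2 (FDR 0.0501), and with only the groups compared (FDR 0.101). The comparisons share control groups, so that their values are not independent of each other.

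Most tested genes around ID2 and ID4 were also lower in S134A-GR cells, where 26.5% of all tested genes were lower and 25.0% higher under Veh. Of the 10 nearest tested genes of ID2, 5 on each side, 7 were lower under Veh, with a median log2 fold change of −0.746 and a range from −4.05 to −0.0661. The nearest, ID2-AS1 and KIDINS220, were at −0.07 (FDR 0.905, not called) and −0.50 (FDR 1.59e-05). With 10 genes on each side, 15 of 20 were lower, and the median was −0.575. ID2 itself, at −0.63, lay within the range of these genes, whose low end was RNF144A (−4.05, at a distance of −1761 kb). Of the 10 nearest genes of ID4, 8 were lower, with a median of −0.361. Its nearest neighbours, RNF144B at a distance of −1450 kb and MBOAT1 at 262.3 kb, had values of −0.74 and −0.36. Around ID1, 2 were higher and 2 lower (median −0.01), and the nearest, HM13-AS1 and BCL2L1, were at 0.35 (FDR 0.468) and 0.09 (FDR 0.0416). Around ID3, 2 were higher and 5 of 10 lower (median −0.114), with 6 lower under TGFβ1, and the nearest, E2F2 and RPL11, were at 0.07 and −0.17. Under TGFβ1 the medians were −0.63 around ID2 and −0.324 around ID4. These sets of 10 genes differed in extent, from −4975 to 744.8 kb around ID2 and from −1717 to 1827 kb around ID4. Around ID1 they ran from −1228 to 239 kb, and around ID3 from −198.5 to 233.2 kb. With 10 genes on each side of ID3, 12 of 20 were lower and 2 higher under TGFβ1 (median −0.224). Of all tested genes, 25.7% were lower and 23.1% higher in that comparison. The part of these regions in the values of ID2, ID3 and ID4 was not tested, and no measure of gene copy number was analysed here.

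**Figure D4:**
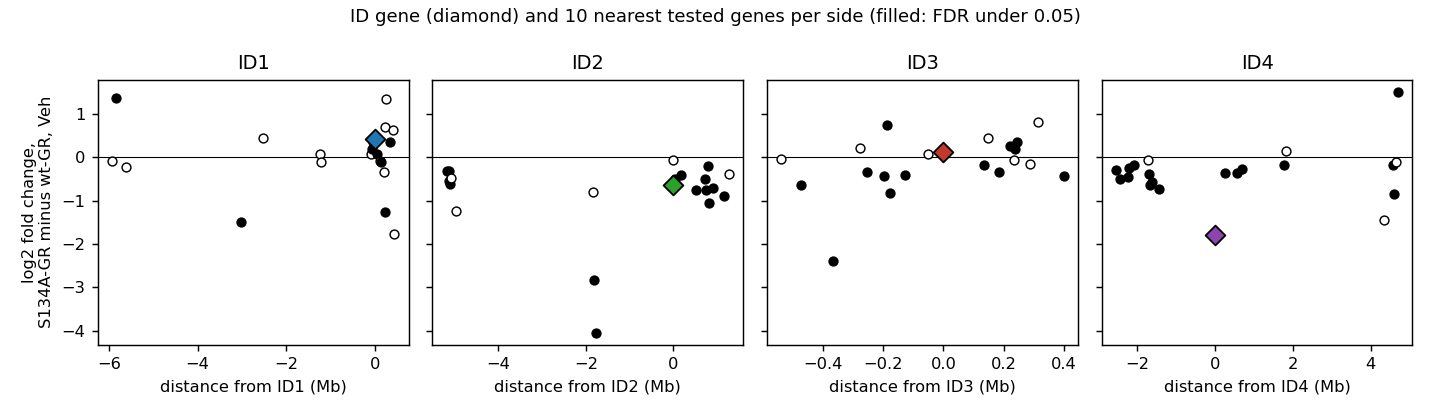
Line difference under Veh, S134A-GR minus wt-GR, as a log2 fold change (y axis) for each ID gene (diamond) and its 10 nearest tested genes per side (points, filled where the FDR was under 0.05) against distance in Mb (x axis). Around ID2 15 of 20 genes were lower, while around ID1 4 were higher and 3 lower.

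ID2-AS1, the antisense gene next to ID2, shares 145 exonic bases with it, and the strand setting of the counting is not given in the sources used here. ID2-AS1 had group means of 9.78 to 16.01 normalized counts and did not pass the threshold in any comparison, with −0.07 between the lines under Veh (FDR 0.905). Of the 75-base stretches of the ID2 transcript, the length of a read, 10.4% also occur on chromosome 3, so that part of its reads could be shared with a copy there. ID1, ID3 and ID4 had no such stretch elsewhere in the genome.

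The pathway around the ID genes was read from lists of 107 genes, of which 84 were tested. With TGFβ1, 23 were higher and 13 lower in the wt-GR line, against 19 and 15 in the S134A-GR line, with medians of 0.0267 and −0.0279 against −0.00459 and −0.00972 over all genes. Over all tested genes, 11.2% were higher and 9.82% lower in the wt-GR line, and 10.0% and 8.69% in the S134A-GR line, the shares against which the counts of each family below stand. Among the partners of ID proteins, TCF4 rose in both lines, with group means of 53.6 and 128 normalized counts without and with TGFβ1 in wt-GR cells (log2 1.29), and of 79 and 157.4 for S134A-GR (0.98). TCF12 rose by 0.16 in wt-GR cells, and TCF3 was at −0.03 and −0.08 and not called. Of 6 tested tissue-restricted bHLH genes, ATOH8, also a target of SMAD1 and SMAD5, fell in both lines, with log2 fold changes of −2.12 and −2.22. LYL1 rose by 1.54 in wt-GR cells, and its S134A-GR group means were 0.676 and 0, under the floor. Of 10 HES, HEY and BHLHE repressor genes, 3 rose and 2 fell in the wt-GR line, against 1 and 4 in the S134A-GR line. BHLHE40 rose in both, by 1.16 and 1.35, and BHLHE41 (−0.81 and −0.67) and HES2 (−0.19 and −0.30) fell in both. HES1 rose in wt-GR cells (0.42), and HES6 (−0.31) and HES7 (−0.32) fell in S134A-GR cells.

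Among 7 tested BMP ligands, 3 fell in the wt-GR line, while 2 fell and 1 rose in the S134A-GR line. BMP4 fell in both, with group means of 12320 and 6003 normalized counts without and with TGFβ1 in wt-GR cells (log2 −1.04), and of 13780 and 8136 for S134A-GR (−0.76). BMP8B also fell in both (−0.44 and −0.49), BMP5 fell in wt-GR cells (−2.49), and BMP2 rose by 0.69 in S134A-GR cells. Of 14 receptors and coreceptors, 3 rose in each line, which were ACVR1, a BMP type I receptor (0.29 and 0.22), BMPR2, the BMP type II receptor (0.46 and 0.66), and ENG, the coreceptor endoglin. TGFBR3, or betaglycan, fell in both (−1.09 and −0.74), and ACVRL1 fell in S134A-GR cells (−0.67). Of the 6 SMAD genes, SMAD3 fell (−0.37 and −0.27), and SMAD1, SMAD2, SMAD4, SMAD5 and SMAD9 were not called in either line.

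Of 19 tested inhibitors of BMP or SMAD signaling, 9 rose and 3 fell in the wt-GR line, against 8 and 2 in the S134A-GR line, with medians of 0.287 and 0.172. NOG, which encodes the BMP antagonist noggin, rose in both, with group means of 2430 and 4342 normalized counts without and with TGFβ1 in wt-GR cells (0.85), and of 4030 and 6772 for S134A-GR (0.74). SMAD7, the inhibitory SMAD, rose by 1.19 and 1.32, SKIL by 1.62 and 1.51, and FSTL3, a binder of activin, by 1.73 and 1.64. The ubiquitin ligase genes SMURF1 (0.42 and 0.35) and SMURF2 (0.54 and 0.69) and the corepressor gene SKI (0.28 and 0.17) also rose in both, and TOB1 fell in both (−0.27 and −0.35). TWSG1 (−0.22) fell in wt-GR cells. SOSTDC1 was also called lower there (−1.73, FDR 0.0447, limma), with group means of 15.8 normalized counts without and 5.65 with TGFβ1. Its value in wt-GR TGFβ1 replicate 2, at 0.73, was under the floor. FST, or follistatin, rose by 1.14 in wt-GR cells while it was at 0.27 with S134A-GR, and the difference of −0.87 passed the threshold. PMEPA1 rose by 2.90 and 2.18, with a difference of −0.72 that also passed, as did that of ENG (−0.24). Thus 3 of the 84 pathway genes were called in this comparison, where 0.414% of all tested genes were called in either direction. Several of these inhibitors are also TGFβ1 targets, and the list was not independent of earlier results.

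Of 13 tested genes besides the ID genes read as targets of SMAD1 and SMAD5, 3 rose and 2 fell in the wt-GR line, against 2 and 4 in the S134A-GR line, with medians of 0.0135 and −0.171. SMAD6, SMAD7, SMAD9, BAMBI, NOG, ATOH8 and HEY1 were also counted in the families above, so that this list is not separate from those. ATOH8 and RUNX2 (−0.39 and −0.38) were lower in both, and SMAD7 and NOG higher in both. HEY1 rose in wt-GR cells (0.57), and GATA2 (−0.37) and MSX2 (−0.27) fell in S134A-GR cells. Among 6 tested regulators of ID genes, ATF3, known as a partner of SMAD3 in the repression of ID1, was at 0.07 and −0.06 and not called. MYC rose in both lines, by 0.17 and 0.24, YY1 rose in wt-GR cells by 0.17, and CREB1 rose in S134A-GR cells by 0.19. Of 4 tested genes downstream of ID proteins, CDKN1A, a cyclin-dependent kinase inhibitor, rose by 0.81 and 0.63, and THBS1, or thrombospondin, rose by 1.08 and 1.05. Among the genes for ID protein turnover, USP1, a deubiquitinase of ID proteins, fell in wt-GR cells (−0.19), FZR1 rose by 0.25 and 0.22, and RFWD2 was not called.

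**Figure D5:**
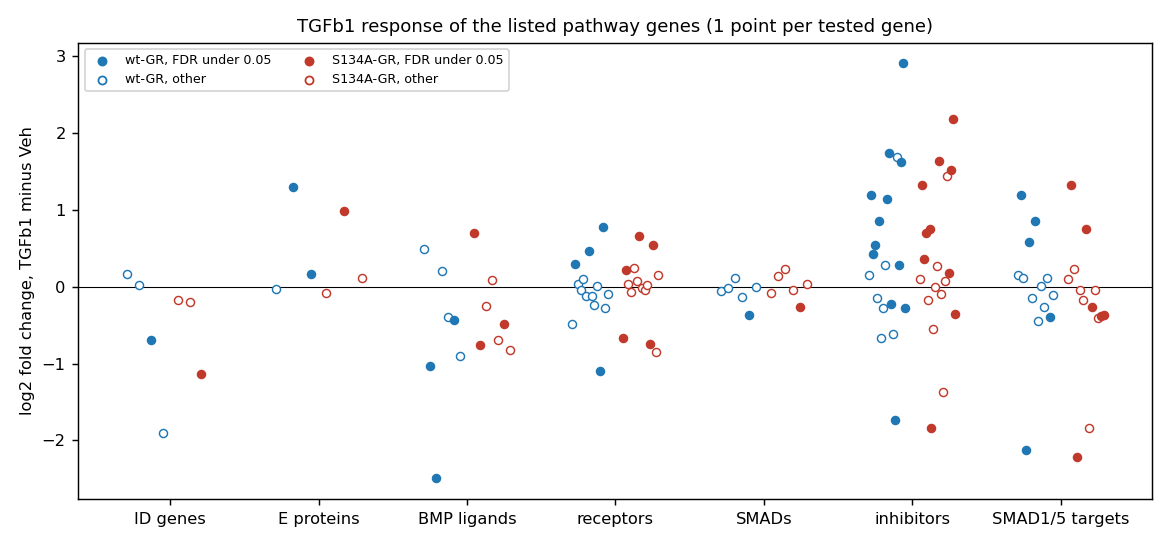
Log2 fold change with TGFβ1 (y axis) for each tested gene of 7 lists (x axis) in wt-GR cells (blue) and S134A-GR cells (red), filled where the FDR was under 0.05, without ID4 in S134A-GR cells. Some genes belong to several lists. Of the 19 inhibitors 9 rose in the wt-GR line and 8 in the S134A-GR line, while of the BMP ligands 3 and 2 fell.

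Over the 12 libraries, the genes whose log2 level was most like ID3 among 12467 candidates with a mean of at least 100 normalized counts were THBD (Pearson r 0.98), NRG2 (0.962) and ORC1 (0.956). THBD fell with TGFβ1 in both lines (−0.52 for wt-GR, −0.79 for S134A-GR), and the group means of NRG2 were 401.8 without and 172.4 with TGFβ1 for wt-GR, against 530.4 and 169.1 for S134A-GR. For ID1 they were FBXO46 (0.945), FRAT2 (0.941) and DCTN2 (0.94), and FBXO46, like ID1, had its highest group mean, 2697, in S134A-GR cells with Veh. ID2 and ID4 had means under 100 and were not compared in this way. These correlations describe 12 points that share 4 group means.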

How the data were processed

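RNA from 12 libraries was sequenced in 75-base paired-end mode. Per the labels and the study's methods, the authors trimmed with Trimmomatic, aligned to hg38 with HISAT2, counted with featureCounts and divided by DESeq2 (version 1.22.2) size factors. The values deposited are therefore a signal, normalized counts, with 1 value per symbol and library. The annotation and strand setting are not given in the sources used here. In every library 100% of values were whole multiples of a step (tolerance 0.01), which gave back the reads.

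Log2 of the normalized count plus 1 was fitted with limma 3.58.1 (R 4.3.3) as 4 group means, with empirical Bayes moderation and a trend, for genes with at least 10 reads over all libraries. P-values were adjusted by Benjamini-Hochberg over 18579 genes and called at an FDR under 0.05. Such fold changes understate the change of low genes. Permutation of 3 against 3 samples cannot go below 0.1. Floors cover counting error only. Alternatives were edgeR 4.0.16 and DESeq2 1.42.0 on the recovered reads, and the settings given in the closing section.

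The pipelines were tested on simulated data with dispersions estimated by edgeR, in which 200 of 18396 genes were changed 4-fold in the S134A-GR Veh group. Limma and edgeR held close to their nominal false discovery rate there, while DESeq2's Wald test exceeded it. Smaller changes, changes in low genes and changes in as many genes as were called between the lines were not simulated. A call made by DESeq2 alone is therefore marked as such, and the simulation does not show whether it is false. Symbols were placed by GENCODE or, for older symbols, through RefSeq synonyms (18630 of 19907). Identity between the ID proteins had been planned and was not computed. The members and lists were chosen with earlier results of these data known. Named were the ID genes, pathway genes called in a treatment comparison or in the difference of responses, members of lists of up to 7 genes, the genes most like ID1 and ID3, and the nearest genes. Some genes that this rule would name are not reported here. The genes of the treatment check are given by count, and markers of other cell types by their levels.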

Additional observations from a re-analysis of the deposited data

Results flagged for a closer look

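Every TGFβ1 library was above every Veh library for ID1 in wt-GR cells and below every one in S134A-GR cells, although the change was called in neither line (FDR 0.0731 and 0.0735, limma). Only the 4 members were searched for such opposite separation, and its share among all genes was not computed. The difference of the responses of ID1 was −0.33 on the log2 scale and did not pass adjustment over all genes (FDR 0.18, limma). Among the pathway genes and the markers of other cell types, the difference of responses passed the threshold for FST (−0.87), PMEPA1 (−0.72), PDGFRB (−0.68, a fibroblast marker and no pathway gene) and ENG (−0.24), each with a smaller rise in S134A-GR cells. These were 3 of 84 tested pathway genes and 1 of 11 tested markers, where 0.414% of all tested genes were called in either direction. Groups of 3 libraries were too small for a test of single outlying libraries.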

How the results depend on the processing

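Under 24 alternatives, 12 of them leaving out 1 library each, the fall of ID3 with TGFβ1 kept its direction and call in both lines (−0.73 to −0.65 for wt-GR, −1.24 to −0.99 for S134A-GR), as did the higher ID1 and lower ID2 named in the report as holding throughout. For the other calls the cause of a change was not tested. ID4 between lines under Veh lost its call with a pseudocount of 0.5 (−1.96), edgeR with TMM (−1.77) or RLE (−1.78), DESeq2 (−1.81), only the groups compared and no trend (both −1.79), and it kept its call at a pseudocount of 16, at −0.65. ID3 between lines under TGFβ1 lost it with only the groups compared (−0.31), which left 1 ID gene called. In wt-GR cells ID4 gained a call with TGFβ1 at a pseudocount of 16 (−0.71), with DESeq2 (−2.15) and with only the groups compared (−1.90), giving 2 ID genes called, and in S134A-GR cells ID1 gained one with DESeq2 (−0.16) and with only the groups compared (−0.17), also giving 2. For the difference of responses, DESeq2 called ID1 (−0.32), 1 ID gene, and 211 genes in all in place of 77, while no trend gave 29. On simulated data with 4-fold changes, DESeq2 exceeded its nominal false discovery rate. With 10 neighbours per side the median was 0.0782 around ID1 and −0.575 around ID2.

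Leaving out 1 library in turn gave, between lines under Veh, −0.72 to −0.50 for ID2, −2.25 to −1.11 for ID4 and 1 to 3 ID genes called. Under TGFβ1 it gave −0.41 to −0.16 for ID3 and 1 to 2 ID genes called. With TGFβ1 in wt-GR cells it gave 0.079 to 0.23 for ID1, −0.084 to 0.086 for ID2, which changed sign without wt-GR Veh replicate 1 (−0.06) and without wt-GR TGFβ1 replicate 3 (−0.084), −2.29 to −1.56 for ID4 and 1 to 2 called. In S134A-GR cells it gave −0.20 to −0.14 for ID1 and 1 to 2 called. The difference of responses ran from −0.40 to −0.25 for ID1, with 0 to 1 ID genes and 22 to 166 genes called in all. The lowest of these counts was without wt-GR TGFβ1 replicate 1 and the highest without wt-GR Veh replicate 3.

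Libraries with the same replicate number did not deviate together (mean r 0.000891, from −0.155 to 0.154, and 3 of 12 libraries closest to their own number). The main fit held no replicate block. Whether libraries with the same number shared a culture or batch cannot be told from this. With a replicate block, ID4 under Veh kept its value (−1.79 with limma, −1.80 with edgeR) at FDRs of 0.0602 and 0.0742, 58 genes were called for the difference of responses with limma and 62 with edgeR, and no other call of an ID gene changed. TMM scaling moved the median of all genes by less than 0.1. ID4 was not tested under edgeR's filterByExpr. ID4 was at the limit of detection, with 4 of 12 values under 3 reads.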
